A study of Rattus norvegicus with 6 samples.

Results

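Integrins are the receptors through which NPCs hold on to their matrix, and the transcripts of 10 integrin subunits were followed here in NPCs under oxidative stress with and without FGF21. The 10 subunits were taken by symbol from the combined table of raw counts: Itga1, Itga2, Itga3, Itga5, Itga6, Itga10, Itga11, Itgav, Itgb1 and Itgb5. They are 10 of 20264 symbols in the table, of which 14882 had at least 1 count. All 10 passed the filter on low counts, with 11426 genes tested in all. None had an adjusted p under 0.05 between the groups (quasi-likelihood test of edgeR, p-values adjusted by the Benjamini-Hochberg method over all genes tested). Transcripts of Itga3 and Itgb5 were 1.22-fold and 1.20-fold as high in the TBHP+FGF21 group as in the TBHP group, and those of Itgb1 were 0.876-fold as high. Those of Itga2, counted on few reads, were 0.766-fold as high. With 1 TBHP+FGF21 library left out (replicate 3), the log2 fold changes of Itga3 and Itgb1 shrank to 0.13 and -0.11.

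An integrin is a pair of an alpha and a beta chain that spans the plasma membrane. The alpha chain largely sets which matrix protein is bound, and the beta chain tail binds talin and kindlin, which tie the receptor to actin and to focal adhesion kinases. Itgb1 pairs with most of the alpha chains studied here, whereas Itgb5 pairs with Itgav. Cells of the nucleus pulposus live in a matrix rich in aggrecan and collagen and meet fibronectin and laminin through these receptors.

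RNA-seq was done on primary NPCs isolated from the caudal discs of wild type male Sprague-Dawley rats. In the TBHP group (3 libraries), cells received tert-butyl hydroperoxide (TBHP), an oxidant given to induce senescence. In the TBHP+FGF21 group (3 libraries), cells received TBHP together with recombinant rat FGF21, a secreted growth factor. Both groups carried TBHP, and no library of untreated cells was analysed here, so levels cannot be set against unstressed cells. The treatment labels name FGF21 for replicate 1 of the TBHP+FGF21 group, FGF22 for replicate 2 and FGF23 for replicate 3, while the protocol and design text give FGF21 for the whole group, which was followed. Age, dose and duration are not given in the labels. The replicates are described as biological, without saying which cultures or animals each came from.

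Libraries held between 18277732 and 22426190 counts, and the 10 subunits took between 0.771% and 0.937% of them. Levels are in CPM (counts scaled to a common library total) after TMM scaling, which allow a gene to be compared between libraries. They are not divided by transcript length, so levels were not compared between genes. A count of 3, the upper limit that a count of 0 allows, is 0.134 to 0.164 CPM and covers counting error only. Of the markers of nucleus pulposus cells, Acan was at 2506 to 2939 CPM in the TBHP group and at 2864 to 4355 CPM in the TBHP+FGF21 group. The notochordal markers Tbxt, Shh and Noto had a count of 0 in every library, Col2a1 was between 0.408 and 0.782 CPM, and Col1a1, a fibroblast and annulus collagen, was between 27868 and 42463 CPM. Of the other notochordal markers, Krt8 was at 2.31 to 4.27 CPM and Cd24 at 0.718 to 2.13 CPM. Among leukocyte markers, Cd14 was at 24.97 to 35.6 CPM and Cd68 at 1.27 to 2.27 CPM, while Ptprc, Adgre1, Cd163 and Tyrobp were listed at 0 in all libraries. Among endothelial markers, Cldn5 was at 6.28 to 10.2 CPM, while Cdh5 and Kdr were listed at 0. Counts at or near 0 could not be read as absence of these markers, because of the low count of Col1a2 given below. Fewer cells of a type and less RNA per cell cannot be told apart in such bulk libraries.

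The 3 subunits with the smallest unadjusted p by edgeR over all libraries were Itga3, Itgb5 and Itgb1, none with an adjusted p under 0.05. Their upstream sequences, picked by these values, are shown. They are the 250 bases before each gene's start, read 5′ to 3′ on the gene's strand from RefSeq (GRCr8 build). Capitals mark the GC box GGGCGG, the letters bound by Sp and KLF factors, on either strand.
Itga3 promoter, chr10:80518902-80519151, minus strand: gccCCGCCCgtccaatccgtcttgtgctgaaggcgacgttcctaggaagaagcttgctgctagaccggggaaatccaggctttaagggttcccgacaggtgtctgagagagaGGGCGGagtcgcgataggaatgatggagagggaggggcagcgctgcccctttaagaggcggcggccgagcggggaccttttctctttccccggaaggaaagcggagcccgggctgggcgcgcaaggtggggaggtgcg
Itgb5 promoter, chr11:80449374-80449623, minus strand: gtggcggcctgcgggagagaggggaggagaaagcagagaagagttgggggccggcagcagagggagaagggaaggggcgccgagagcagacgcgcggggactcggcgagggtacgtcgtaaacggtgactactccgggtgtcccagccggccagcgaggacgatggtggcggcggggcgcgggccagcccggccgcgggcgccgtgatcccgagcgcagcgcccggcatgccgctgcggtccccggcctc
Itgb1 promoter, chr19:73602027-73602276, plus strand: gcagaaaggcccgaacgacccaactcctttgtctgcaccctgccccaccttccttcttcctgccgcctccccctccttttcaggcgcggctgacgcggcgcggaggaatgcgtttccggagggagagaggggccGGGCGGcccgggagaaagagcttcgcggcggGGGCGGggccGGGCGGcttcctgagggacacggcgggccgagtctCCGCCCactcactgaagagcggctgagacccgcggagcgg
The Itga3 window held 2 GC boxes, that of Itgb1 held 4, and that of Itgb5 held none although its GC content was 74.4%. RefSeq gave a window for 9 of the 10 subunits, and 6 of the 9 held a GC box (Itga2, Itga3, Itga5, Itga11, Itgav and Itgb1), against 30.47% of 33469 windows of the same length. The median GC content was 64% for the 9 windows and 51.2% for all windows. The TEAD letters GGAATG were found on either strand in 3 windows (Itga3, Itga10 and Itgb1), against 12.06% of all, and the antioxidant response letters TGACNNNGC in that of Itgb1, against 10.08%. The letters of AP-1 (TGANTCA), CRE (TGACGTCA), ETS (CCGGAAGT) and FOXO (TGTTTAC) were in none of the 9. These matches describe letters and not binding. By the same annotation, Itga1 and Itga2 are neighbouring coding genes on chromosome 2, which also holds Itga10. Itga6 and Itgav lie on chromosome 3.

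Across the 10 subunits, 7 had a fitted log2 fold change above 0 and 3 below 0, and 48.9% of all genes tested were above 0. The median log2 fold change of the subunits was 0.09, against -0.01 over all genes. An unadjusted p under 0.05 was reached by 1 of the 10 (Itgb5), where 8.92% of all genes reached it (4.63% higher and 4.29% lower). No subunit had an adjusted p under 0.05, against 0.00875% of all genes, which is 1 gene (Sirt1, named after its values were seen). The deposited files differ for Sirt1: its counts in the combined table (32, 38 and 35 in the TBHP group and 121, 111 and 113 in the TBHP+FGF21 group) equal no row of the per-sample files. The 1 per-sample row with the same 3 TBHP+FGF21 counts has 92, 138 and 125 in the TBHP group. With the unstranded per-sample counts edgeR called 0 genes, and 1082 had an unadjusted p under 0.05. For 1 subunit, again Itgb5, all 3 TBHP+FGF21 values exceeded all 3 TBHP values, against 4.9% of all genes (9.9% without overlap in either direction). At the threshold the study used (log2 fold change beyond 1 in either direction, with an unadjusted p under 0.05), no subunit passed, against 0.534% of all genes. The 95% intervals of all 10 log2 fold changes lay inside -0.91 to 0.63, so that none reached a change of 2-fold in either direction. The plot of CPM in each library shows this overlap for the other 9.

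**Figure D1:**
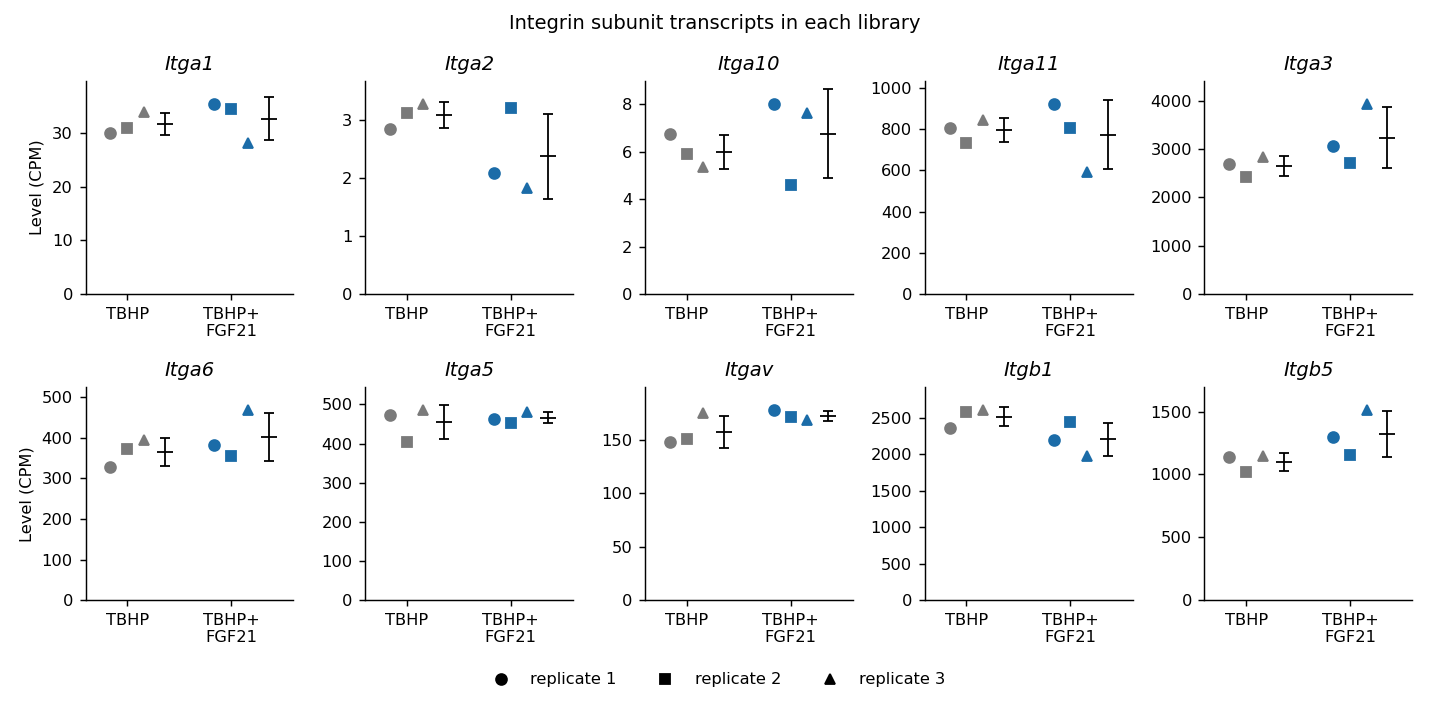
Level of each integrin subunit in CPM (y axes, from 0, a scale of its own per panel) in the 3 TBHP libraries (grey) and the 3 TBHP+FGF21 libraries (blue), with marker shapes for replicates and bars for the mean ± SD. Itgb5 is the panel in which all 3 blue points lie above all 3 grey points, and the triangle (replicate 3) of the TBHP+FGF21 group lies farthest from the TBHP group for Itga3, Itgb5 and Itgb1.

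The alpha chains that bind laminin were Itga3 and Itga6. Itga3 was at 2694, 2414 and 2829 CPM in the TBHP group (replicates 1, 2 and 3, the order kept throughout) and at 3071, 2708 and 3933 CPM in the TBHP+FGF21 group. Replicates 1 and 3 of the TBHP+FGF21 group were above every TBHP library, and replicate 2 lay within the TBHP range. The means were 2646 ± 212 and 3237 ± 629 CPM (SD, n = 3 each). The log2 fold change was 0.29 (SE 0.13, 95% interval -0.0016 to 0.58), with an adjusted p of 0.553 in edgeR's quasi-likelihood test. Itga6 was at 327, 373 and 394 CPM in the TBHP group and at 381, 356 and 468 CPM in the TBHP+FGF21 group. Here the groups overlapped, and replicate 3 of the TBHP+FGF21 group was again the highest library. Its log2 fold change was 0.14 (SE 0.12) and fell to 0.02 without that replicate.

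Itgb1 and Itgb5 are the beta chains. Itgb1, the common partner of the collagen- and laminin-binding alpha chains, was at 2362, 2570 and 2604 CPM in the TBHP group and at 2195, 2434 and 1973 CPM in the TBHP+FGF21 group. Replicates 1 and 3 of the TBHP+FGF21 group lay below all TBHP libraries, and replicate 2 lay within them. The means were 2512 ± 131 and 2201 ± 231 CPM (SD, n = 3 each), and the log2 fold change was -0.19 (SE 0.11, 95% interval -0.42 to 0.04, adjusted p 0.568 by edgeR). Itgb5, whose product joins Itgav to bind vitronectin, was at 1138, 1019 and 1144 CPM in the TBHP group and at 1299, 1151 and 1512 CPM in the TBHP+FGF21 group. All TBHP+FGF21 libraries were above all TBHP libraries, though replicate 2 exceeded the highest of them only narrowly. The log2 fold change was 0.26 (SE 0.11, 95% interval 0.02 to 0.51), with an unadjusted p of 0.0394 and an adjusted p of 0.553 in edgeR's quasi-likelihood test.

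Whether Itgb5 had an unadjusted p under 0.05 depended on how reads were counted, while its log2 fold change moved little. Strand columns are also given per library, and their sum for Itgb5 was 38036, 43261 and 44611 reads in the TBHP group and 49138, 43764 and 65117 in the TBHP+FGF21 group. The unstranded column, which the combined table uses, gave 20376, 22485 and 24400 reads and 27418, 24046 and 34691 reads. Between 44.2% and 48.0% of the reads over Itgb5 were thus left out of the combined table. The missing reads matched within 1 count, in all 6 libraries, the strand columns of a second identifier whose unstranded count was 0 throughout. No symbol was paired with that identifier in the sources used here, and which identifier these reads came from was not tested. For the other 9 subunits the strand columns added at most 0.031%. With the reads of both strands summed and all given to Itgb5, it was at 1982, 1838 and 1968 CPM in the TBHP group. In the TBHP+FGF21 group it was then at 2204, 1977 and 2707 CPM. The groups then overlapped, and the log2 fold change was 0.25 (SE 0.12, 95% interval -0.02 to 0.52) with an unadjusted p of 0.0632 and an adjusted p of 0.575 by edgeR. In that fit, Itga3 was the subunit with an unadjusted p under 0.05 (0.0479), where 8.38% of all genes had one and 4.86% were higher. The library preparation marks strand, yet the strand columns had total ratios of 0.977 to 0.986, so strand was not used to assign these reads.

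**Figure D2:**
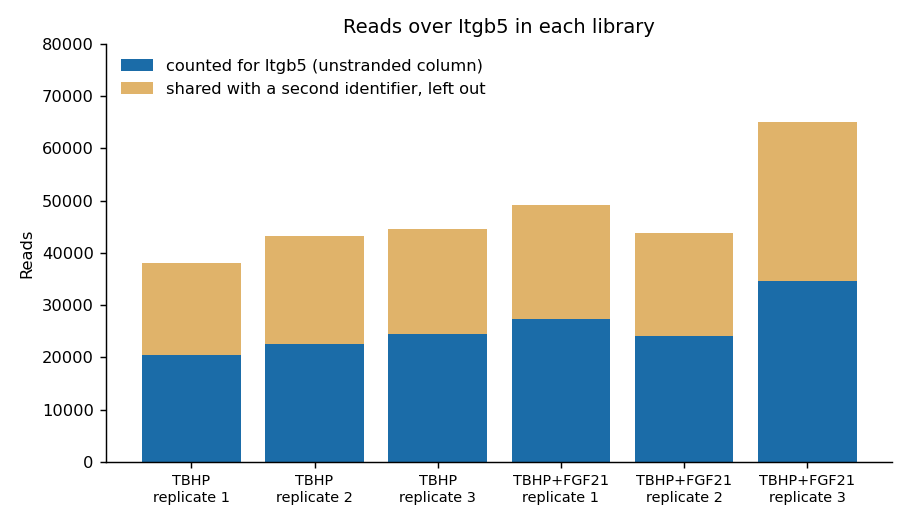
Reads over Itgb5 in each library (y axis, number of reads, from 0), split into those counted for Itgb5 in the unstranded column (blue) and those shared with a second identifier and left out (yellow). The yellow part is 44.2% to 48.0% of each bar, and replicate 3 of the TBHP+FGF21 group has the tallest bar (65117 reads).

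The collagen-binding alpha chains were Itga1, Itga2, Itga10 and Itga11, of which 2 had log2 fold changes above 0 and 2 below 0. Itga11, the receptor of fibrillar collagen on mesenchymal cells, was at 806, 731 and 844 CPM in the TBHP group and at 921, 803 and 589.9 CPM in the TBHP+FGF21 group. Both the highest and the lowest of these libraries were in the TBHP+FGF21 group, and the log2 fold change of -0.04 (SE 0.14) became 0.13 without its replicate 3. Itga1 was at 29.995, 31.0 and 33.9 CPM in the TBHP group and at 35.4, 34.6 and 28.1 CPM in the TBHP+FGF21 group. It had the same order within the TBHP+FGF21 group as Itga11, with replicate 3 lowest, and a log2 fold change of 0.05 (SE 0.11).

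Itga10 and Itga2 were counted on few reads. Itga10, a collagen receptor known from chondrocytes, had 805 counts over the 6 libraries and was at 6.76, 5.89 and 5.34 CPM in the TBHP group and at 8.01, 4.595 and 7.63 CPM in the TBHP+FGF21 group. Its highest and lowest libraries both belonged to the TBHP+FGF21 group, and the log2 fold change was 0.17 (SE 0.21). Itga2, which binds collagen and is best known from platelets and epithelia, had 343 counts in all and was at 2.85, 3.13 and 3.28 CPM in the TBHP group and at 2.08, 3.21 and 1.83 CPM in the TBHP+FGF21 group. Replicates 1 and 3 of the TBHP+FGF21 group were below the TBHP libraries and replicate 2 was among them. The log2 fold change of -0.38 had the widest interval of the 10 (-0.91 to 0.14).

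The alpha chains that bind the RGD sequence of fibronectin and vitronectin varied least. Itga5, the main fibronectin receptor chain, was at 474, 405.0 and 486 CPM in the TBHP group and at 462, 453 and 481 CPM in the TBHP+FGF21 group, all TBHP+FGF21 values lying inside the TBHP range. Its log2 fold change was 0.03 (SE 0.10, 95% interval -0.18 to 0.25). Itgav, the alpha chain that pairs with Itgb5, was at 148, 150.5 and 175 CPM in the TBHP group and at 178, 171 and 168 CPM in the TBHP+FGF21 group. Itgav had a log2 fold change of 0.13 (SE 0.10, 95% interval -0.08 to 0.34), and 1 TBHP library lay among the TBHP+FGF21 values. Itga5 and Itgav each differed 1.20-fold between their highest and lowest libraries, while Itga3 differed 1.63-fold and Itga2 1.79-fold. The spread within groups, as an SD of log2 CPM, ran from 0.098 for Itgav to 0.31 for Itga10, with a median of 0.164 for the subunits and 0.150 for all genes.

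The libraries of the TBHP+FGF21 group did not move together. Replicate 3 was the highest of the 6 libraries for 3 subunits (Itga3, Itga6 and Itgb5) and the lowest for 4 (Itga1, Itga2, Itga11 and Itgb1), against 23.0% and 23.9% of all genes. Against the TBHP mean, Itga3 stood 0.58 higher on the log2 scale in replicate 3, 0.22 higher in replicate 1 and 0.04 higher in replicate 2. For Itgb1 the same differences were -0.35, -0.19 and -0.04. Replicate 2 lay inside the TBHP range for 7 of the 10 subunits, and for 64.4% of all genes. The heat map of single libraries shows replicate 2 as the palest column of its group for most subunits.

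**Figure D3:**
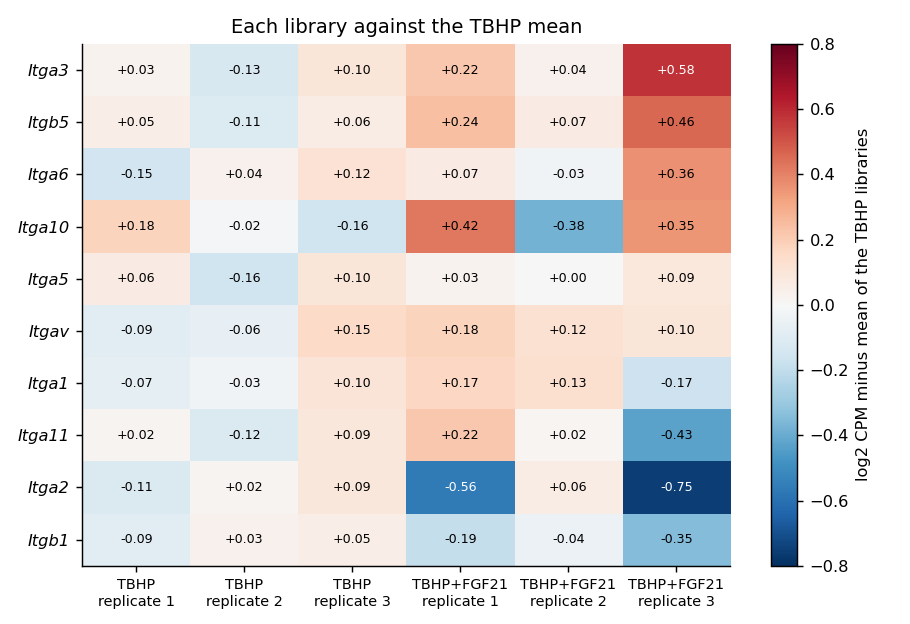
Difference of log2 CPM from the mean of the TBHP libraries (color scale and printed values) for the 10 subunits (rows) in the 6 libraries (columns). Replicate 3 of the TBHP+FGF21 group runs from 0.58 for Itga3 to -0.75 for Itga2, whereas its replicate 2 is at 0.04 and 0.06 for the same genes.

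The count of subunits past a threshold depended on these libraries. With TBHP+FGF21 replicate 2 left out, 5 of the 10 subunits had an unadjusted p under 0.05, against 23.6% of all genes. Itga3, Itga10 and Itgb5 were higher, where 11.6% of all genes were, and Itga2 and Itgb1 were lower, where 12.0% were. In that fit Itga3 rose by a log2 fold change of 0.41 (SE 0.12, adjusted p 0.0483 by edgeR), where 7.5% of all genes had an adjusted p under 0.05 and 3.78% were higher. Over the fits that each left out 1 library, the adjusted p of Itga3 ran from 0.0483 to 0.982. Itgb5 had a log2 fold change of 0.36 without replicate 2 and missed the threshold (adjusted p 0.0533 by edgeR, range 0.0533 to 0.982 over the fits that left out 1 library). With TBHP+FGF21 replicate 3 left out, none of the 10 had an unadjusted p under 0.05, against 2.96% of all genes, and Itga3 was at 0.13 and Itgb1 at -0.11 on the log2 scale. Replicate 2 is the library labelled with FGF22 and replicate 3 the one labelled with FGF23. The part of these labels in the result was not tested.

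**Figure D4:**
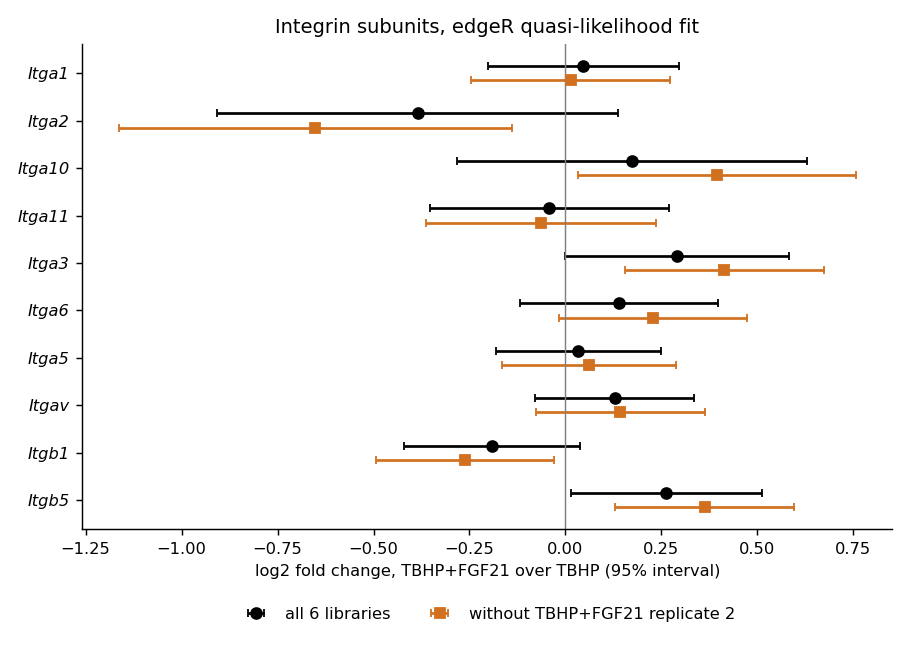
Fitted log2 fold change of TBHP+FGF21 over TBHP (x axis) with its 95% interval for each subunit, from all 6 libraries (black circles) and with TBHP+FGF21 replicate 2 left out (orange squares). With all libraries the interval of Itgb5 alone (0.02 to 0.51) misses 0, and without replicate 2 those of Itga2, Itga3, Itga10, Itgb1 and Itgb5 do.

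Proportions between subunits were taken as ratios of counts in each library, in which transcript length cancels when libraries are compared. These ratios were picked after the values had been seen and were not tested. The ratio of Itga3 to Itgb1 was 1.14, 0.939 and 1.09 in the TBHP group and 1.40, 1.11 and 1.99 in the TBHP+FGF21 group. The ratio of Itgb5 to Itgb1 was 0.482, 0.397 and 0.439 in the TBHP group and 0.592, 0.473 and 0.767 in the TBHP+FGF21 group. That ratio uses the unstranded Itgb5 counts, and with the strand columns summed for Itgb5 it was 0.899, 0.763 and 0.803 against 1.06, 0.861 and 1.44. In all of them, replicates 1 and 3 of the TBHP+FGF21 group lay above the TBHP group and replicate 2 lay within it. The ratio of Itga3 to Itga11 was between 3.30 and 3.37 in 5 libraries and 6.67 in replicate 3 of the TBHP+FGF21 group, so that 1 library alone departed.

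Over the 6 libraries, 4 of the 45 pairs of subunits had a Pearson r of log2(CPM + 0.5) above 0.8 and 5 had one below -0.8. These are descriptions over libraries that share groups and depth. The share over all pairs of genes was not worked out, so these counts cannot be called particular to the subunits. Itga3 and Itgb5 had r = 0.99 (Spearman's rho 0.94), and r = 0.93 over the 4 libraries left without the 2 farthest from the median of Itga3. Itga2 and Itgb1 had r = 0.96 (rho 0.94), and 0.76 over 4 libraries. Itga3 and Itgb1 had r = -0.90 (rho -0.60), which was -0.56 over 4 libraries and so leaned on the outer ones. The genes most like Itgb1 among 11425 were F3 (tissue factor, the starter of coagulation), Btbd10 and Slc6a4 (the serotonin transporter), with r between 0.991 and 0.994, and 316 genes had an r above 0.9. Those most like Itgb5 were Smarcc2 (a chromatin remodelling subunit), Sox9 (the chondrocyte transcription factor) and Capn1 (a calpain protease), with r between 0.997 and 0.999, and 659 genes had an r above 0.9.

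Beyond the 10, 16 other integrin subunits were looked up, and 9 passed the filter. Of these, 6 had log2 fold changes above 0 and 3 below 0, with a median of 0.11 and none at an unadjusted p under 0.05. Itga7, a laminin-binding alpha chain, was at 221, 193 and 199.8 CPM in the TBHP group and at 237, 194 and 277 CPM in the TBHP+FGF21 group, with a log2 fold change of 0.21 (SE 0.12). Like Itga3, it was highest in replicate 3 and within the TBHP range in replicate 2. Itgb8, which pairs with Itgav to activate latent TGF-beta, was at 1.40, 1.18 and 1.13 CPM against 2.56, 1.10 and 2.14 CPM (log2 fold change 0.65, SE 0.32). The others higher on the log2 scale were Itgb3 (0.46, SE 0.35), Itgb4 (0.40, SE 0.23), Itgax (0.11, SE 0.16) and Itga8 (0.05, SE 0.11). Those lower were Itga4 (-0.06, SE 0.34), Itgae (-0.31, SE 0.22) and Itga2b (-0.48, SE 0.40). Itga2b, Itgb8, Itga4, Itgb3 and Itgb4 rested on few reads, with 141, 201, 217, 223 and 357 counts in all. Itga9 had a count of 0 in every library, and the leukocyte subunits Itgal, Itgam and Itgb2 had 4, 13 and 4 counts in all. A count near 0 in this table could not be read as absence, because Col1a2 had 72 counts in all where Col1a1, the other chain of the same collagen, had 4692995.

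The laminins, ligands of Itga3 and Itga6, held the most genes with a low p among the related lists. Of 9 tested, 7 were higher and 2 lower with a median log2 fold change of 0.17, and 4 had an unadjusted p under 0.05, all higher, against 4.63% of all genes. Lamc1, the gamma chain of most laminins, was at 276, 289 and 341 CPM in the TBHP group and at 390, 316 and 429 CPM in the TBHP+FGF21 group (log2 fold change 0.32, SE 0.13). Lama5 was at 13.6, 12.2 and 13.4 CPM and at 20.1, 12.3 and 24.7 CPM (0.55, SE 0.20). Replicates 1 and 3 of the TBHP+FGF21 group lay above the TBHP group for both genes, and replicate 2 within it. Lama2, on 173 counts, was at 0.894, 0.907 and 1.03 CPM and at 1.94, 1.10 and 2.22 CPM, with no overlap (0.89, SE 0.31). Lamb3, the lowest of the list, was at 23.3, 24.9 and 27.8 CPM and at 7.34, 29.9 and 11.1 CPM (-0.66, SE 0.36). None of these laminins had an adjusted p under 0.05 with all 6 libraries (edgeR, smallest adjusted p 0.553). With TBHP+FGF21 replicate 2 left out, 5 of the 9 did. Of these, 4 rose, Lama2, Lama5 and Lamc1 among them, where 3.78% of all genes did, and Lamb3 fell, where 3.72% did. With TBHP+FGF21 replicate 3 left out instead, Lama2, Lama5, Lamc1 and Lamb3 were at 0.69, 0.32, 0.23 and -0.44 on the log2 scale.

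Collagens and other ligands went in both directions. Of 13 collagens tested, 6 were higher and 7 lower, and Col11a1, a fibrillar collagen of cartilage and disc, was at 1679, 1628 and 1645 CPM in the TBHP group and at 1333, 1610 and 905 CPM in the TBHP+FGF21 group (log2 fold change -0.36, SE 0.16, unadjusted p 0.0472 by edgeR). All 3 TBHP+FGF21 libraries lay below the TBHP group, as did those of 5.0% of all genes. Col6a1 was the collagen with the smallest p among those higher (0.22, SE 0.11). Of 18 RGD-bearing and other ligands tested, 7 were higher and 11 lower, with a median of -0.03. Postn, a secreted ligand of Itgav integrins, was at 192, 203 and 222 CPM in the TBHP group and at 124, 187 and 146 CPM in the TBHP+FGF21 group, without overlap (log2 fold change -0.43, SE 0.13, unadjusted p 0.00728 by edgeR). Tgfbi, another ligand, was at 1606, 1465 and 1592 CPM and at 1927, 1542 and 2526 CPM (0.36, SE 0.15).

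Activators, adaptors and other matrix receptors were counted in the same way. Of 11 integrin activators and partners tested, 8 were higher and 3 lower with a median of 0.04. Dab2, an endocytic adaptor of integrin tails, was at 82.1, 86.8 and 110 CPM in the TBHP group and at 133, 90.6 and 136 CPM in the TBHP+FGF21 group (log2 fold change 0.37, SE 0.15). Rap1a, a GTPase that activates integrins through talin, had -0.29 (SE 0.14). Of 25 focal adhesion adaptors and kinases, 9 were higher and 16 lower with a median of -0.02. The tensins Tns2 (0.36, SE 0.14) and Tns3 (-0.15, SE 0.10), which link integrin tails to actin, had the smallest p in either direction. Among 10 matrix receptors that are not integrins, 7 were higher and 3 lower. Ddr2, a collagen receptor kinase, was at 0.29 (SE 0.13), and the syndecan Sdc3 at -0.09 (SE 0.12). Over the 7 lists, 10 of 95 genes tested (10.5%) had an unadjusted p under 0.05, against 8.92% of all genes, and none had an adjusted p under 0.05. With TBHP+FGF21 replicate 2 left out, Dab2 (0.54, adjusted p 0.00979 by edgeR), Tns2 (0.51, 0.00949), Ddr2 (0.42, 0.0247) and Gpc1 (0.45, 0.0233) had an adjusted p under 0.05, all higher. So did Tgfbi, while Postn and Col11a1 were lower at that threshold. In that fit, 7.5% of all genes had an adjusted p under 0.05, 3.78% higher and 3.72% lower. With TBHP+FGF21 replicate 3 left out instead, 0 list genes were called, and 1 had an unadjusted p under 0.05, against 2.96% of all genes. Dab2, Tns2, Ddr2, Gpc1 and Tgfbi were then at 0.27, 0.27, 0.25, 0.21 and 0.17, and Postn and Col11a1 at -0.40 and -0.16.

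**Figure D5:**
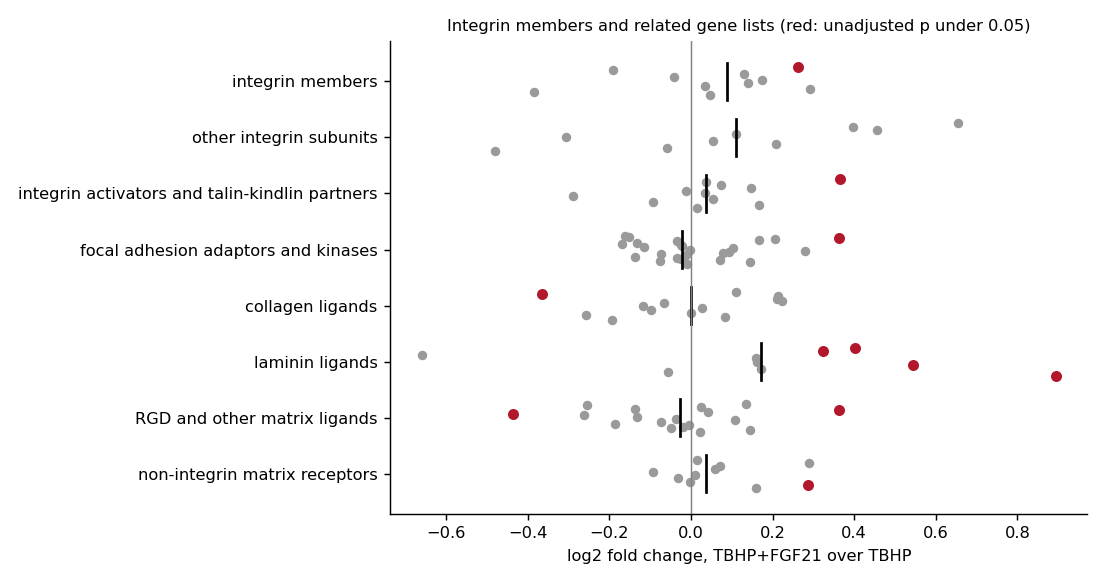
Log2 fold change of TBHP+FGF21 over TBHP (x axis) for each tested gene of the 10 subunits and of 7 related lists (rows), with a black bar at the median and red points for an unadjusted p under 0.05. Medians lie between -0.03 and 0.17, and the laminin row holds 4 red points, all to the right of 0.

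Markers of cell type were followed in the same libraries. Of the chondrocyte-like markers of the nucleus pulposus, 7 of 9 were tested, with 6 higher and 1 lower. The lower one was Col2a1 (log2 fold change -0.26, SE 0.39). Col9a1 and Matn3, on 31 and 33 counts in all, did not pass the filter. For both, all TBHP+FGF21 libraries lay below all TBHP libraries, as for 5.0% of all genes tested. Acan, Sox9, Pax1 and Sox5 had an unadjusted p under 0.05, all higher, against 4.63% of all genes. None of these 4 had an adjusted p under 0.05 with all 6 libraries. With TBHP+FGF21 replicate 2 left out, all 4 did, where 3.78% of all genes were called higher. Their log2 fold changes were then 0.54, 0.75, 0.75 and 1.36. With TBHP+FGF21 replicate 3 left out instead, they were 0.23, 0.30, 0.39 and 0.70, and edgeR called 1 gene in all. The 9 markers together were at 2771 to 3206 CPM in the TBHP group and 3139 to 4799 CPM in the TBHP+FGF21 group, mostly Acan. Acan was at 3476, 2864 and 4355 CPM in replicates 1, 2 and 3 of the TBHP+FGF21 group, the order seen for Itga3 and Itgb5. Annulus and fibroblast markers summed to 39758 to 44020 CPM and 29483 to 41637 CPM, mostly Col1a1. Scx (-0.39) was lower and Pdgfra (0.39) higher on the log2 scale at an unadjusted p under 0.05. Both also had an adjusted p under 0.05 with TBHP+FGF21 replicate 2 left out, where 7.5% of all genes did. With TBHP+FGF21 replicate 3 left out instead, they were at -0.28 and 0.24. Of the 9 annulus and fibroblast markers, 8 were tested and Tnmd was at 0. Macrophage markers, mostly Cd14, summed to 32.2 to 37.9 CPM in the TBHP group and 26.8 to 32.96 CPM in the TBHP+FGF21 group, and 2 of 8 were tested. Endothelial markers were at 8.10 to 10.8 CPM and 7.11 to 10.7 CPM, with 1 of 6 tested. Muscle markers were at 13.3 to 16.1 CPM and 12.9 to 15.8 CPM, with 2 of 6 tested. Notochordal markers were at 5.70 to 7.17 CPM and 4.83 to 5.19 CPM. Of the 12 notochordal symbols looked up, 9 were present and 2 were tested, both lower. Krt8 was at -0.43 (SE 0.20) without overlap, and Cd24 at -0.55 (SE 0.36), on the log2 scale. Neither had an unadjusted p under 0.05 by edgeR. Of those not tested, Car12 and Foxa1 were higher and Foxa2 lower without overlap, on 41, 30 and 32 counts. The part of these marker levels in the integrin values was not tested.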

How the data were processed

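RNA-seq counts of 6 libraries were grouped by their titles, 3 TBHP and 3 TBHP+FGF21. The authors deposited raw counts per Ensembl identifier for each library (not normalized), giving reads without regard to strand and reads on each strand. They also deposited a combined table per symbol, handled as the unit of expected or estimated counts because 22 rows are not whole. Those rows were rounded up. The submitters' processing notes name STAR and featureCounts, and the genome build is not given in the sources used here. Unmapped (1.24% to 1.40%), multimapping, outside-gene and ambiguous reads stayed out of library sizes and tests. Identifiers and symbols were linked by identical counts (13204 linked, all 10 subunits included).

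The groups were compared by edgeR 4.0.16 (R 4.3.3) with TMM, filterByExpr (minimum count 10, minimum total 15), glmQLFit, glmQLFTest and Benjamini-Hochberg adjustment over 11426 genes. A 3 against 3 permutation test cannot go below a p of 0.1 and was not used. The p-values measure the spread between these libraries. No library repeated another (chi-square per gene between pairs 6.94 to 58.4). On simulated counts of 11426 genes for this comparison, edgeR found 176 of 200 genes given a log2 change of 1, with 12 of 188 calls false. The fitted log2 fold changes of the 10 subunits were smaller, from -0.38 (Itga2) to 0.29 (Itga3). Recovery of changes of that size was not tested. Genes were simulated independently of each other, so departures of 1 library across many genes at once were not simulated. The recovery therefore cannot be carried over to these libraries.

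Alternatives were DESeq2 1.42.0, limma-voom (limma 3.58.1), other scalings and filters, the counts of the unstranded and strand columns, the replicate block and leaving out each library. The sum of strand columns was added after the data had been seen. The subunits and lists were chosen with earlier results of these data known. Named are the 10 subunits, every other integrin subunit tested, in each list the gene with the smallest p in either direction, and the 3 genes most correlated with Itgb1 and with Itgb5. Genes named beyond this rule (further laminins, Gpc1, and markers with a test value or a direction) were picked after their values were seen. The values of 1 gene of the lists are not reported here.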

Additional observations from a re-analysis of the deposited data

How the results depend on the processing

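No subunit was called under any of the 11 alternatives that kept all libraries, and each kept its direction there, with shifts of at most 0.044 on the log2 scale (Itga2, limma-voom). Those 11 took in DESeq2, limma-voom, scaling, filter, strand and block settings. Leaving out 1 library called between 0 and 1 subunit (Itga3, TBHP+FGF21 replicate 2 left out) and turned the sign of 4 values of 60. Itga5 ranged from -0.044 (without TBHP replicate 2) to 0.092. Itga11 ranged from -0.18 to 0.13 (without TBHP+FGF21 replicate 3) and was 0.01 without TBHP replicate 3. Itga1 ranged from -0.0036 (without TBHP+FGF21 replicate 1) to 0.15. The 1 subunit with an unadjusted p under 0.05 became 2 (Itga3 and Itgb5) with the DESeq2 Wald test, DESeq2 size factors, library sizes only, a minimum count of 30 or no filter, and 0 with strand column 3. It ranged from 0 to 5 when 1 library was left out. Genes called among all genes (1) became 4 with the DESeq2 Wald test, 5 with no filter, and 0 with limma-voom (996 at an unadjusted p under 0.05), strand column 3 (956), strand column 4 (1049), their sum (1065) and the unstranded per-sample counts (1082). Leaving out 1 library gave 0 to 867. Genes of the related lists called (0) ranged from 0 to 12, and those with an unadjusted p under 0.05 (10) from 1 to 33, with 16 under no filter. The causes were not tested.

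Deviations of libraries with the same replicate number correlated at -0.14, 0.27 and 0.18 over genes. For libraries with different numbers the correlations ran from -0.31 to 0.21, so whether the numbers mark pairs could not be told. The main fit did not take them as pairs, and the replicate block was an alternative. With the replicate block, 2 subunits, 17 list genes and 1599 of all genes (1019 without it) had an unadjusted p under 0.05, and 2 genes were called, none of them a subunit. TBHP replicate 1 correlated best with TBHP+FGF21 replicate 2 (0.10). Itga2 and Itga10 rested on 343 and 805 counts in all, and the part of depth in their intervals was not tested.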
